A study of Rattus norvegicus with 9 samples.

Results

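Icam1 and Vcam1, the genes of the leukocyte adhesion molecules ICAM-1 and VCAM-1, were followed across 9 RNA-sequencing libraries of rat brain tissue. Both were chosen by Ensembl identifier, ENSRNOG00000020679 for Icam1 and ENSRNOG00000014333 for Vcam1, with earlier results of these data known. They are 2 of the 32623 genes in the count table. The 3 groups were given saline, rt-PA, or Nano-patrol+NIR, with 3 libraries a group, called by their group and replicate number. Every group was injected 4.5 h after modelling, a procedure the labels leave unexplained, and brain was sampled 3 days after the injection. Strain, age, brain region and hemisphere were not given in the sources used here. rt-PA is recombinant tissue plasminogen activator, which dissolves clots by converting plasminogen to plasmin, but the count columns and sample descriptions of this group say uk, and the agent was not resolved. Nano-patrol+NIR is not explained in the labels, and the series title speaks of thrombolysis with less hemorrhagic risk. A group without modelling, and groups given Nano-patrol or NIR alone, were not analysed here.

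In blood vessels, selectins slow passing leukocytes, and ICAM-1 and VCAM-1 on the endothelial surface then hold them firmly before they cross the wall. ICAM-1 binds the beta2 integrins LFA-1 and Mac-1 carried by neutrophils, monocytes and lymphocytes. VCAM-1 binds the integrin VLA-4 of monocytes and lymphocytes. Endothelial cells make little of either protein at rest and more after TNF or interleukin-1, largely through the transcription factor NF-kB, and both are widely used as signs of an inflamed brain vessel. Other brain cells, such as activated microglia and astrocytes, can make them too. In bulk tissue, fewer cells of a type and less RNA per cell cannot be told apart. The files do not pair identifiers with symbols, so no marker of endothelium or of leukocytes could be read, and the cell source of either transcript was not tested.

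The stretches upstream of both genes are shown as background, because these genes share a textbook inducer. Whether these stretches bear on the levels in these libraries was not tested. Both are from RefSeq, build GRCr8, and hold the 250 bases before the start used by its promoter table, 5' to 3' on the gene's strand. They lie at chr8:27829595-27829844 on the plus strand for Icam1 and at chr2:206742784-206743033 on the minus strand for Vcam1. The RefSeq span of Icam1 begins inside its window, and the build behind the counts is unknown. Capitals mark each match, on either strand, to GGAAATTCC and GGGATTTCC (letters of known NF-kB elements), TTCNNNGAA (the STAT element), GGGCGG (the Sp1 box) or TATAAA (the TATA box).
Icam1: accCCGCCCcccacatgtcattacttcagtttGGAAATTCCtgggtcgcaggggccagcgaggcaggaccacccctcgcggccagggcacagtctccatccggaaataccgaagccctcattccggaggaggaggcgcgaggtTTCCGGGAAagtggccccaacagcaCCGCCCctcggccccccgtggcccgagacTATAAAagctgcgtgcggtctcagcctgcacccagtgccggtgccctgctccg
Vcam1: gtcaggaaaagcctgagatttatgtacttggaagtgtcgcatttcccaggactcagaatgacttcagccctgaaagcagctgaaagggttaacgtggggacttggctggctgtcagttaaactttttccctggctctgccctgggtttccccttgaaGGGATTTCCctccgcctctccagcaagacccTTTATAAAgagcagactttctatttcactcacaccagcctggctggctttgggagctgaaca
Icam1 held GGAAATTCC at positions -218 to -210, counted upstream from that start. Vcam1 held GGGATTTCC at -93 to -85. Among the 33469 promoter windows of the table, cut to the same 250 bases, 0.287% held GGAAATTCC and 0.29% held GGGATTTCC. All motifs here were chosen after both windows had been read, so these shares do not test whether a match is unusual. Neither gene held the other's NF-kB letters in this window. Only these exact letters were sought for NF-kB, so elements spelled otherwise stay in lower case. How many NF-kB elements each window holds was not counted. TTCNNNGAA was found in Icam1 at -107 to -99, and in 7.67% of all windows. GGGCGG occurred at 2 places in Icam1, as CCGCCC, and in 30.5% of all windows. Both genes held TATAAA, at -53 to -48 in Icam1 and at -60 to -55 in Vcam1, as did 12.9% of all windows. The Vcam1 match overlaps a match on the other strand at -62 to -57. Matching letters describe these windows only, and no binding was measured.

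Library totals over all genes ran from 13059048 to 14992109 counts, and 15402 genes were abundant enough to test, both members among them. Levels are given as CPM, in which counts are divided by TMM-scaled library totals over the tested genes. CPM is not corrected for gene length, so the level of Icam1 is not compared with that of Vcam1. One library of each group stood apart over all tested genes. Saline 1, rt-PA 3 and Nano-patrol+NIR 3 correlated with the others of their group at r = 0.8962 to 0.9441, whereas the remaining pair of each group correlated at 0.9836 to 0.9903 (across genes, which are not independent replicates). For the larger moves on leaving out these libraries, both values are given. Leaving out a library because it stands apart shrinks the spread that remains. Each p from a fit without rt-PA 3, or without all 3, is therefore too small and is given as a description.

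Icam1 was lowest in saline, between the other groups in Nano-patrol+NIR, and highest in rt-PA. Saline 1, 2 and 3 held 122, 84 and 100 Icam1 counts, or 8.28, 6.47 and 7.11 CPM. rt-PA 1, 2 and 3 held 262, 304 and 130 counts, or 20.2, 23.2 and 9.05 CPM. Each rt-PA library lay above each saline library, but rt-PA 3 was only just above saline 1 and far below the rest of its group. Counting error covers that last gap, since the exact 95% Poisson intervals were 7.56 to 10.7 CPM for rt-PA 3 and 6.88 to 9.89 CPM for saline 1. In Nano-patrol+NIR 1, 2 and 3 the counts were 144, 107 and 240, or 10.7, 8.12 and 16.7 CPM. Nano-patrol+NIR 3 was the high library there, and Nano-patrol+NIR 2 lay within the saline range.

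Group means of Icam1 were 7.29 ± 0.917 CPM in saline, 17.5 ± 7.45 CPM in rt-PA and 11.9 ± 4.4 CPM in Nano-patrol+NIR (SD, n = 3 each). rt-PA exceeded saline 2.39-fold, a log2 difference of 1.26 (SE 0.39, 95% interval 0.38 to 2.14), with an edgeR unadjusted p of 0.0103 and an adjusted p of 0.168 that missed the threshold of 0.05. In this comparison 0.00649% of tested genes, a single one, passed that threshold, 9.05% were higher in rt-PA at an unadjusted p under 0.05, and 9.18% were higher without overlap, as Icam1 was. The log2 difference of Icam1 was larger than that of 95.4% of tested genes. Without rt-PA 3 it was 1.60 with an edgeR adjusted p of 0.0165, in a fit that called 13.5% of genes. DESeq2 on all 9 libraries gave 1.29 with an adjusted p of 0.0369 and called 6.88% of genes. Over the 17 alternatives the adjusted p for this difference ran from 0.000126 to 0.449, and rt-PA was higher in each of them. The lowest came from edgeR without all 3 libraries that stood apart, in a fit that called 43.8% of genes.

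Nano-patrol+NIR exceeded saline 1.63-fold in Icam1, a log2 difference of 0.70 (SE 0.38, 95% interval -0.17 to 1.58, edgeR adjusted p = 0.937), and again 0.00649% of tested genes passed. The libraries overlapped, with 8 of 9 pairings of a Nano-patrol+NIR with a saline library higher in Nano-patrol+NIR. Without Nano-patrol+NIR 3 the log2 difference was 0.37, without saline 1 it was 0.82, and without all 3 libraries that stood apart 0.48. Against rt-PA, the Nano-patrol+NIR level was 1.47-fold lower, or -0.56 on the log2 scale (SE 0.38, 95% interval -1.42 to 0.31, edgeR adjusted p = 0.556), and these libraries overlapped as well. This difference was -0.90 without rt-PA 3 (edgeR adjusted p = 0.0946), -0.92 without Nano-patrol+NIR 3 and -0.30 without rt-PA 2. Without all 3 libraries that stood apart it was -1.24 with an edgeR adjusted p of 0.000715, within a range of 0.000715 to 0.922 over the alternatives, in a fit that called 40.5% of genes. With all 9 libraries, neighbours in the order saline, Nano-patrol+NIR, rt-PA did not differ beyond their spread. The edgeR test of any difference among the 3 groups gave Icam1 an adjusted p of 0.289. Without rt-PA 3 that p was 0.0329, where 12.1% of genes were called, and without all 3 libraries 0.000192, where 45.3% were called, in a range up to 0.666.

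**Figure D1:**
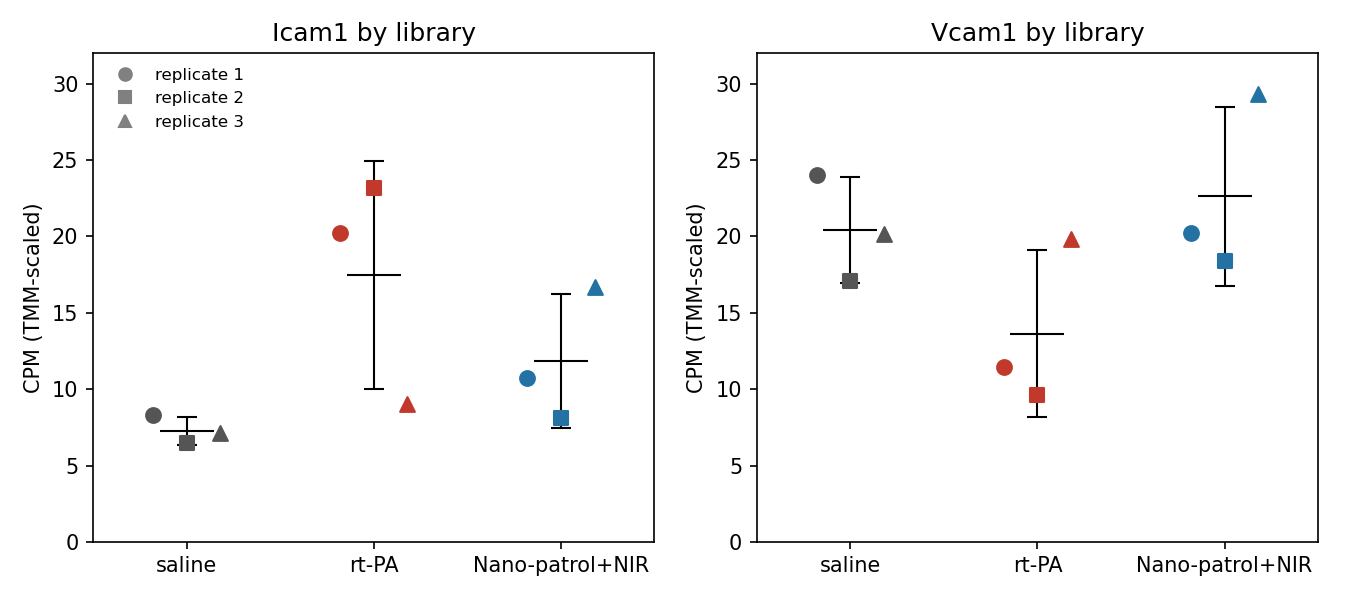
Icam1 (left) and Vcam1 (right) in TMM-scaled CPM by group. Each point is a library with its shape giving the replicate number, horizontal bars are group means and whiskers are 1 SD (n = 3). rt-PA 3 sits at 9.05 CPM for Icam1 and 19.8 CPM for Vcam1, next to the saline libraries in both panels.

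Vcam1 took another order, with rt-PA lowest and saline and Nano-patrol+NIR close together. Saline 1, 2 and 3 held 354, 222 and 284 Vcam1 counts, or 24.0, 17.1 and 20.2 CPM. rt-PA 1, 2 and 3 held 148, 126 and 285 counts, or 11.4, 9.6 and 19.8 CPM. rt-PA 1 and 2 lay below each saline and each Nano-patrol+NIR library, and rt-PA 3 lay inside the saline range. Nano-patrol+NIR 1, 2 and 3 held 271, 242 and 421 counts, or 20.2, 18.4 and 29.3 CPM. Nano-patrol+NIR 3 was the highest of the 9 libraries for Vcam1, and the other libraries of its group lay inside the saline range.

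The Vcam1 means were 20.4 ± 3.47 CPM in saline, 13.6 ± 5.46 CPM in rt-PA and 22.6 ± 5.86 CPM in Nano-patrol+NIR (SD, n = 3 each). rt-PA was 1.5-fold below saline, a log2 difference of -0.58 (SE 0.31, 95% interval -1.29 to 0.12, edgeR adjusted p = 0.371). Only 1 of 9 pairings of an rt-PA with a saline library was higher in rt-PA, the pairing of rt-PA 3 with saline 2. Without rt-PA 3 the log2 difference was -0.93 and the edgeR adjusted p 0.0608, within a range of 0.00478 to 0.71 over the alternatives. The lowest of these came without all 3 libraries that stood apart, at a log2 difference of -0.78, in a fit that called 43.8% of genes. Nano-patrol+NIR and saline differed by 0.15 on the log2 scale (SE 0.31, 95% interval -0.55 to 0.84, edgeR adjusted p close to 1). That small difference changed sign without Nano-patrol+NIR 3, to -0.09.

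Vcam1 in Nano-patrol+NIR exceeded the rt-PA level 1.66-fold, which is 0.73 on the log2 scale (SE 0.31, 95% interval 0.03 to 1.44). The edgeR unadjusted p was 0.0431 and the adjusted p 0.347, where 5.91% of tested genes were higher in Nano-patrol+NIR at an unadjusted p under 0.05 and 0% passed after adjustment. In this comparison DESeq2 called 627 and limma-voom 1 of 15402 tested genes, with Icam1 and Vcam1 outside both sets. The DESeq2 adjusted p was 0.266 for Vcam1 and 0.535 for Icam1. Most tested genes lay outside both sets too, so lying outside says little about either member. Of 9 pairings, 8 were higher in Nano-patrol+NIR, the exception being rt-PA 3 over Nano-patrol+NIR 2. Without rt-PA 3 the log2 difference was 1.07 with an edgeR adjusted p of 0.0413, in a fit that called 13.1% of genes. Without Nano-patrol+NIR 3 it was 0.48, and over the 17 alternatives the adjusted p ran from 0.00372 to 0.798. The lowest again came without all 3 libraries that stood apart, at 0.83, where 40.5% of genes were called. The test of any difference among the groups gave Vcam1 an edgeR adjusted p of 0.434, and with all 9 libraries no neighbours in the order rt-PA, saline, Nano-patrol+NIR differed beyond their spread.

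**Figure D2:**
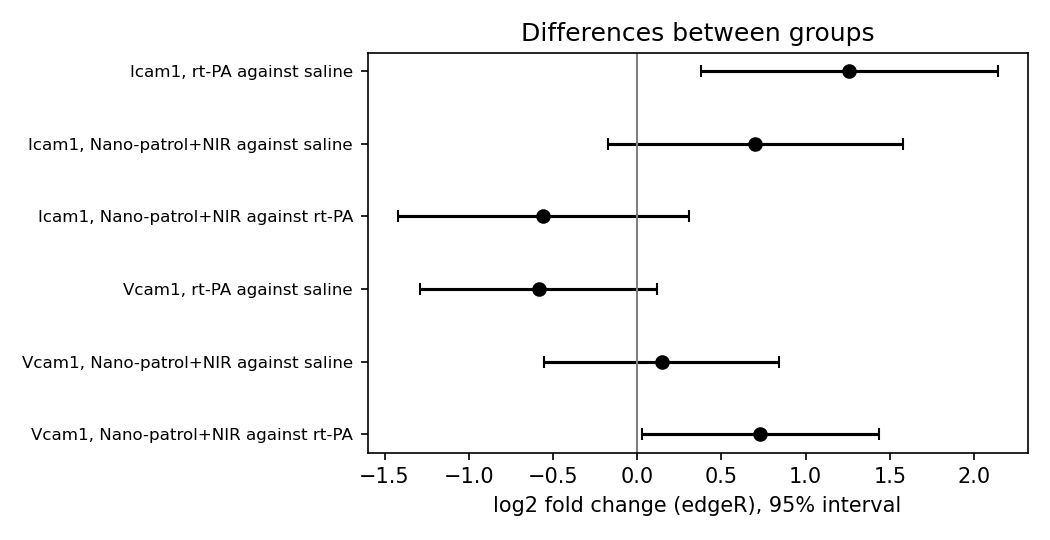
Log2 fold changes from the edgeR fit of all 9 libraries (x axis) for each gene and comparison, with 95% intervals that are not adjusted for the number of genes. The intervals of Icam1 in rt-PA against saline, 0.38 to 2.14, and of Vcam1 in Nano-patrol+NIR against rt-PA, 0.03 to 1.44, lie above 0, and the other 4 include 0.

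Counting error was small beside the spread within the treated groups, less so in saline. One SD of counting error was 4.87% for the 421 Vcam1 counts of Nano-patrol+NIR 3 and 10.9% for the 84 Icam1 counts of saline 2. Between libraries of a group, the coefficient of variation of Icam1 was 12.6% in saline, 42.6% in rt-PA and 37.1% in Nano-patrol+NIR. For Vcam1 it was 17.0%, 40.1% and 25.9% in the same order. Within rt-PA the highest Icam1 library exceeded the lowest 2.56-fold, and 14.9% of the 11022 genes averaging at least 100 counts spread more widely. Vcam1 spread 2.07-fold in rt-PA, with 22.7% of those genes wider. In Nano-patrol+NIR, Icam1 spread 2.06-fold with 10.3% of those genes wider, and Vcam1 1.60-fold with 24.6% wider. In saline the spreads of 1.28-fold and 1.40-fold were near the median of 1.38-fold over the same genes.

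The number of Vcam1 counts per Icam1 count was compared next, a ratio taken inside each library that no scaling of library totals can move. It was chosen after the levels had been seen. Its size depends on the lengths of both transcripts, so only differences between libraries are read from it. In saline 1, 2 and 3 the ratio was 2.90, 2.64 and 2.84, a spread that the exact 95% counting intervals of the 3 libraries cover. In rt-PA 1, 2 and 3 it was 0.565, 0.414 and 2.19, so that Icam1 counts exceeded Vcam1 counts in rt-PA 1 and 2 and in no other library. In Nano-patrol+NIR 1, 2 and 3 it was 1.88, 2.26 and 1.75. Nano-patrol+NIR 3, which was high for both genes, had a ratio close to the others of its group. Each treated library lay below each saline library, but the counting intervals of rt-PA 3 and of all 3 Nano-patrol+NIR libraries overlapped that of saline 2, 2.05 to 3.44. That of Nano-patrol+NIR 3 did so barely, at 1.49 to 2.06.

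On the log2 scale the ratio averaged 1.48 ± 0.0706 in saline, -0.32 ± 1.28 in rt-PA and 0.97 ± 0.189 in Nano-patrol+NIR (SD, n = 3 each). The ratio was 3.49-fold lower in rt-PA than in saline, a log2 difference of -1.80, and -2.53 without rt-PA 3. In Nano-patrol+NIR it was 1.43-fold lower than in saline, a log2 difference of -0.51, and -0.44 without Nano-patrol+NIR 3. Both comparisons gave p = 0.1 in the exact two-sided permutation test, the smallest p that 3 libraries against 3 can give. Nano-patrol+NIR and rt-PA overlapped, with a log2 difference of 1.29 and an exact permutation p of 0.3. That difference was 0.81 without rt-PA 2. It was 2.01 without rt-PA 3 and 2.09 without all 3 libraries that stood apart (exact permutation p = 0.2 and 0.333). In both cases the groups no longer overlapped. That follows from the choice of library, since rt-PA 3 was the only rt-PA library above any Nano-patrol+NIR library. An exact permutation test over the 3 groups gave p = 0.075, and the Benjamini-Hochberg adjusted p over these 4 tests was 0.133 for that test and both saline comparisons and 0.3 for the other. The separation from saline was not particular to Vcam1. Of the 15401 other tested genes, 45.0% had a ratio to Icam1 that was lower in each rt-PA library than in each saline library, and 31.1% did so in Nano-patrol+NIR. Seen from Vcam1, 20.0% of other genes had a ratio to Vcam1 that was higher in each rt-PA library, as Icam1 had, and 3.68% in each Nano-patrol+NIR library.

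**Figure D3:**
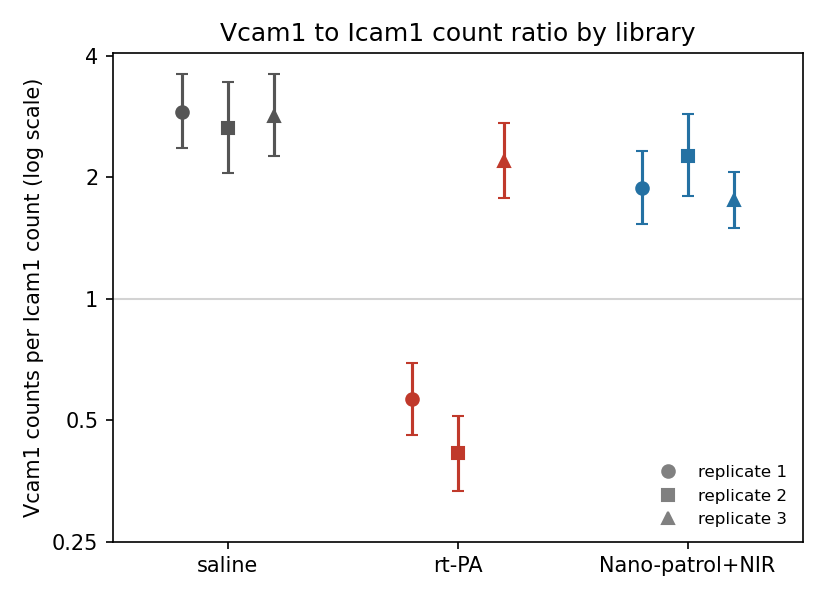
Vcam1 counts per Icam1 count in each library on a log axis, by group, with exact 95% binomial intervals that cover counting error only. rt-PA 1 and rt-PA 2 lie below 1, at 0.565 and 0.414, and the other 7 libraries lie between 1.75 and 2.90.

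Across the 9 libraries the log2 CPM of Icam1 and Vcam1 correlated at Pearson's r = -0.51 (exact permutation p = 0.162) and Spearman's rho = -0.18 (exact permutation p = 0.644). These coefficients rest on rt-PA 1 and rt-PA 2, the libraries farthest from the median Icam1 level. Among the other 7 libraries r was 0.82 and rho 0.75, with the opposite sign, a value given as a description since the pair also stands apart in the plot of both genes. Nano-patrol+NIR 3 was the highest of those 7 for both genes, and how far this r leans on it was not tested. As deviations from group means the genes correlated at r = -0.27 (exact permutation p = 0.479). Adjusted over these 2 Pearson tests, the p-values were 0.324 and 0.479. With only Nano-patrol+NIR 3 left out of the 9 libraries, r was -0.86 (exact permutation p = 0.05 after rounding).

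**Figure D4:**
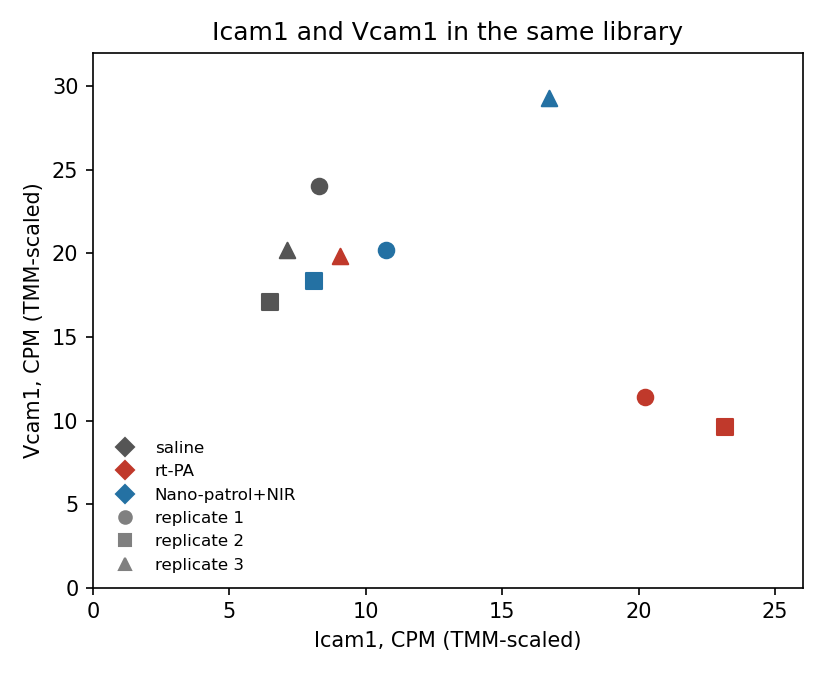
Icam1 (x axis) and Vcam1 (y axis) in TMM-scaled CPM, with 1 point per library, colours for groups and shapes for replicate numbers. rt-PA 1 and rt-PA 2 lie at the lower right, at 20.2 and 23.2 CPM of Icam1, while rt-PA 3 lies among saline and Nano-patrol+NIR libraries.

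The gene most like each member in pattern was sought next, and the highest r of so many genes is bound to be high. Likeness was measured as Pearson's r of log2 CPM over the 9 libraries, among 11860 other genes averaging at least 5 CPM. ENSRNOG00000013176 was most like Icam1, at r = 0.977, and ran from 34.7 CPM in saline 2 to 64.5 CPM in rt-PA 1. ENSRNOG00000004085 was most like Vcam1, at r = 0.985, and ran from 10.4 CPM in rt-PA 2 to 20.8 CPM in Nano-patrol+NIR 3. An r above 0.9 was reached by 119 genes for Icam1 and by 239 genes for Vcam1, and an r below -0.9 by 81 and 354 genes. These points share the libraries that stand apart, and no test was made of them. With r = -0.51 between them, Vcam1 ranked above 20.8% of those genes in its likeness to Icam1.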

How the data were processed

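RNA was extracted from brain tissue with Trizol, and poly(A) mRNA was fragmented, copied to cDNA and amplified by PCR, per the labels' protocols. Per the submitters' processing notes, the tools included HISAT2, StringTie 1.3.1, Bowtie2 2.2.8 and fastp 0.18.0, with no roles stated. How reads were counted, the strand setting, the build and the annotation were not given in the sources used here. Values deposited by the authors are whole-number read counts per Ensembl gene and library, not normalized. Without a known strand setting, reads of overlapping or antisense genes cannot be told apart.

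Sample titles gave the groups and replicate numbers, and columns were matched through the sample descriptions. Nothing in the labels says that each library is a different animal. The p-values therefore measure the spread among these libraries alone, and that spread may be technical. Counts were tested in R 4.3.3 with edgeR 4.0.16 (filterByExpr, TMM, robust quasi-likelihood F test, 1 fit of 9 libraries, 6 residual degrees of freedom). P-values were adjusted by Benjamini-Hochberg over all 15402 genes, and the threshold was 0.05. Standard errors were the log2 fold change over the square root of F. Log2 CPM used a prior count of 2. PCR reads are not independent molecules, so Poisson and binomial intervals cover counting error only.

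Members, lists and alternatives were chosen with earlier results of these data known. Genes named beside the members are the 1 most like each in pattern. The pairing of both identifiers with symbols came with their choice. The RefSeq table used here has an Ensembl identifier for 0 of 47357 genes, so lists of other adhesion genes, integrins, NF-kB regulators and cell type markers were not tested, nor was the labelled tissue checked against its markers. Promoter windows were matched by symbol for 2 of 2 members, and the motifs were chosen after the windows had been read. Alternatives used DESeq2 1.42.0 and limma-voom (limma 3.58.1), other scalings, no filter, the 6 libraries compared, left-out libraries and a replicate block.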

Additional observations from a re-analysis of the deposited data

How the results depend on the processing

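With DESeq2 the log2 difference of Icam1 between rt-PA and saline, 1.26 by edgeR, was 1.29 and passed the threshold. Leaving out 1 library at a time gave 1.01 to 1.60 for it. The other Icam1 ranges were 0.37 to 0.91 for Nano-patrol+NIR against saline and -0.92 to -0.30 for Nano-patrol+NIR against rt-PA. The edgeR adjusted p of Icam1 for any group was 0.0329 to 0.666. The Vcam1 ranges were -0.93 to -0.39 for rt-PA against saline and -0.086 to 0.29 for Nano-patrol+NIR against saline. They were 0.48 to 1.07 for Nano-patrol+NIR against rt-PA, with edgeR adjusted p of 0.0763 to 0.819 for any group. The edgeR calls in these fits came without rt-PA 3, and the change of sign without Nano-patrol+NIR 3. With Nano-patrol+NIR 3, rt-PA 3 and saline 1 all left out, the log2 differences were 1.72 for Icam1 and -0.78 for Vcam1 in rt-PA against saline. They were -1.24 and 0.83 in Nano-patrol+NIR against rt-PA, and the adjusted p for any group was 0.000192 and 0.00539. All 6 of these values passed the threshold, but so did 43.8% and 40.5% of genes in these 2 comparisons and 45.3% in the test of any group. The libraries were left out because they stood apart, so the spread that remains, and each p, is too small. The same holds for the fits without rt-PA 3 alone. The cause of the other changes was not tested.

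With the replicate number as a block, edgeR gave Icam1 log2 differences of 1.26, 0.71 and -0.54 and Vcam1 -0.65, 0.11 and 0.76, in the order rt-PA and Nano-patrol+NIR, each against saline, then Nano-patrol+NIR against rt-PA, and it changed no call. Mean differences of the log2 ratio within same-numbered libraries, the block for that measure, were -1.80, -0.51 and 1.29. Deviations of same-numbered libraries correlated at -0.362 to 0.278, over 0.1 in 5 of 9 pairs, and the best correlation was with the own number for 2 of 9, so the numbers were not taken to pair the samples. The alternatives for the ratio were chosen after seeing the data and kept its direction in each comparison. The correlation of both genes stayed negative in its 12 alternatives, from -0.86 to -0.19. Leaving out rt-PA 1 and rt-PA 2 together, which is not among those 12, reversed its sign, with r = 0.82 over 7 libraries. Of those 7, Nano-patrol+NIR 3 was the highest for both genes, and r without it as well was not tested. At 84 to 421 counts per gene and library, depth limits the smaller gaps between single libraries. Examples for Icam1 are the gaps among the saline libraries and between rt-PA 3 and saline 1. For Vcam1 the Poisson intervals of saline 1, 21.6 to 26.7 CPM, and saline 2, 14.9 to 19.5 CPM, did not overlap.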
